A study of Mus musculus with 33 samples.

Results

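Venetoclax was compared directly with ruxolitinib in the bone marrow (BM) of mice killed on day 1 post-treatment, with 3 mice for each drug and no vehicle-treated mouse in the contrast. The mice were chosen from the deposited labels by drug and day, and they are 6 of the 33 mice measured. All were female wild type (WT) C57BL/6 animals of 6 to 8 weeks of age, dosed by oral gavage for 2 days. Venetoclax was given once daily at 100 mg/kg in a vehicle of phosal, polyethylene glycol and ethanol. Ruxolitinib was given 2 times a day at 180 mg/kg in a vehicle of DMSO, polyethylene glycol and water. The labels write both dose figures in mg/ml. The 6 mice therefore differed in drug, in vehicle and in the number of doses per day, and these cannot be told apart in the direct contrast. Vehicle and dosing frequency without drug can be examined together, in 2 mice given the venetoclax vehicle once daily and 2 given the ruxolitinib vehicle 2 times a day, whose lanes were in the same run. The question was which immune genes differ between marrow exposed to a drug aimed at lymphocyte survival and marrow exposed to a drug that blocks cytokine signalling.

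Venetoclax occupies BCL2, a mitochondrial protein that holds the cell death machinery in check and on which many lymphocytes depend for survival. Ruxolitinib inhibits JAK1 and JAK2, the kinases that pass signals from interferon (IFN) and many cytokine receptors to STAT transcription factors. IFN-inducible genes are transcribed when a complex of STAT proteins and IRF9 binds a promoter element, the IFN-stimulated response element (ISRE). MHC class II (MHC-II) molecules display peptides to CD4+ T cells. In BM they are carried mainly by B cells, dendritic cells and macrophages, and their genes need the coactivator encoded by Ciita.

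Total BM RNA was read on the NanoString nCounter, in which colour-coded probes bind their target RNA and are counted without amplification, with probes for 750 immune genes and 1 lane per mouse. The lanes of the 3 venetoclax-treated mice held 18056, 247929 and 79124 counts of these probes and those of the 3 ruxolitinib-treated mice 199953, 256839 and 255477. Replicate 1 of the venetoclax group, with 18056 counts, was the shallowest lane of the series, and 40.1% of its probes were above background against 68.5% to 74.9% in the other 5 lanes. The background level of a lane was set 2 SD above the average of its negative control probes, and in replicate 1 it equals 24.4 normalised counts, against 2.77 to 4.29 in the other lanes. A normalised count is the raw count divided by a factor from 11 housekeeping probes. A single raw count in replicate 1 is therefore worth 5.55 normalised counts, which is the lowest value that lane can show. With 1 lane per mouse, the spread between mice includes that of the assay. Marrow genes were present in all lanes: the summed count of the neutrophil list was 59943 to 125289 after venetoclax and 82126 to 96747 after ruxolitinib.

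Of 655 genes tested, 65 differed between the drugs at an adjusted p-value under 0.05 by the quasi-likelihood test of edgeR (9.92%). After venetoclax 14 were higher (2.14%) and 51 lower (7.79%). The share of these genes that was higher after venetoclax, 21.5%, was 34.6% with TMM scaling, 36.8% with geNorm housekeeping probes, 35.6% with DESeq2 and 13.8% with total count scaling. It was 12% with limma and 2.33% with limma after background subtraction. The median log2 difference over all genes tested, venetoclax minus ruxolitinib, was -0.14. Log2 differences, in the direct contrast from 3 mice per group, are given ± SE. The SE is the absolute difference divided by the square root of its F statistic. It rests on the spread within groups over all 33 lanes and is not the spread of these 3 mice. Contrasts with vehicle groups of 2 mice are given the same kind of SE. Genes were named by a rule: up to 15 in each direction by size of difference, 2 per gene list by p-value, those the study names, and the drug targets. In 62 of the 65 genes no venetoclax-treated mouse overlapped a ruxolitinib-treated mouse; over all genes tested this held for 174, or 26.6%. Counts in all 6 lanes were above background for 32 of the 65. Without the shallow venetoclax replicate 1, 57 genes passed (13 higher, 44 lower), and 48 of them were among the 65 with the same direction. Without venetoclax replicate 2, the deepest lane of its group, 25 genes passed, of which 22 were among the 65, and without venetoclax replicate 3 there were 35. Of the 65 genes, 3 (Fcgr1, Igll1 and Tlr1) passed in none of the 6 fits that left out a drug-treated mouse, and 13 passed in 1 of them (Blnk, Ccl9, Cd38, Cmpk2, Cxcl14, Fcer2a, H2-DMb1, Il10ra, Irf8, Mapk11, Nfkbia, Slamf1 and Smad4). A further 6 passed in 2 of them (Ccr9, Cd164, Cd2, Fyn, Rela and Tgfbr2) and 6 in 3 of them (Dusp6, Mef2c, Ppbp, Ripk2, Txnip and Zbp1).

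**Figure D1:**
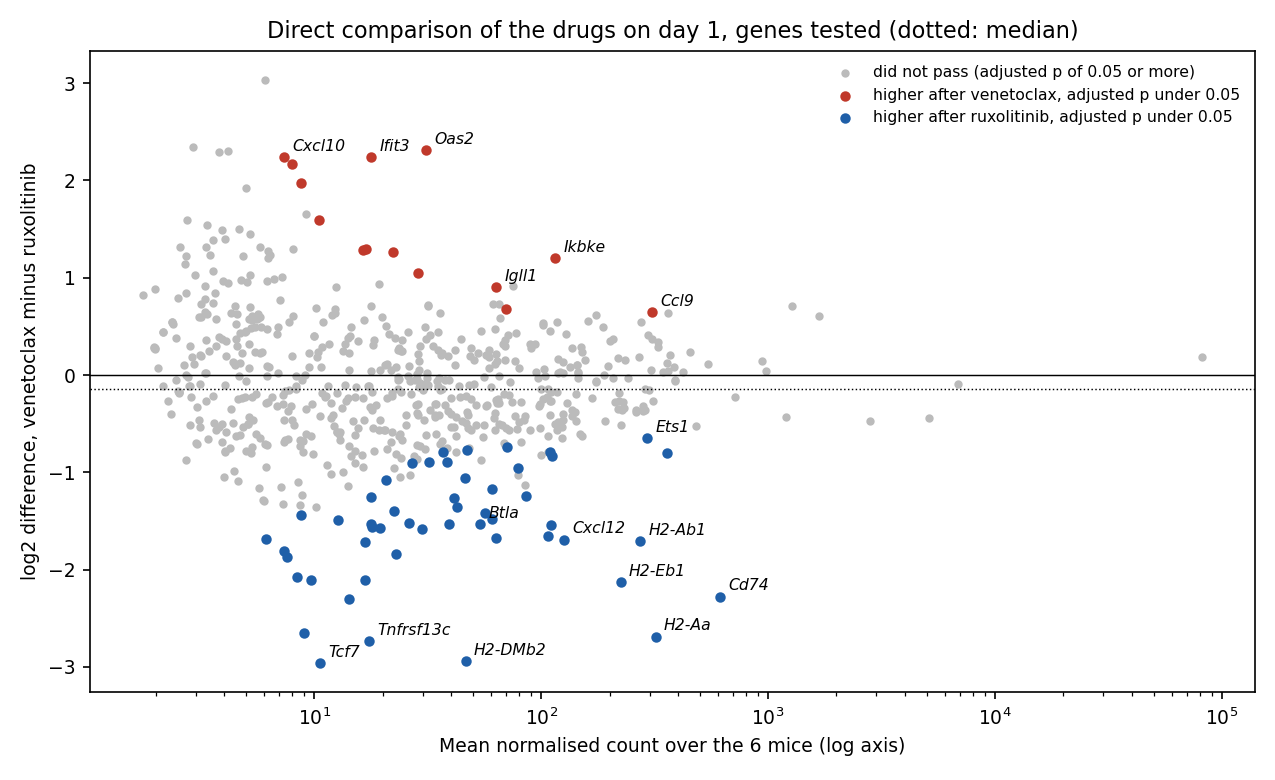
Log2 difference between venetoclax- and ruxolitinib-treated mice on day 1 (y axis) against the mean normalised count over the 6 mice (x axis, log scale), 1 point per gene tested. Red points (14) passed the test as higher after venetoclax and blue points (51) as higher after ruxolitinib, grey points did not pass, and the dotted line is the median of all 655 genes at -0.14.

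Genes were read in 27 lists of pathways and cell types. MHC-II was the list with the lowest median difference, at -2.20, and all 8 of its tested members were lower after venetoclax. The IFN-inducible list had the highest median, at 0.62, with 8 of 31 members higher after venetoclax and 0 lower. Between these the mature B cell list had a median of -0.78 with 5 of 15 lower, the megakaryocyte and platelet list -0.68 with 2 of 9 lower, and the T cell list -0.60 with 2 of 25 lower. Over all genes tested 7.79% were lower and 2.14% higher, and the T cell share is close to that. In bulk RNA, fewer cells of a type and less RNA per cell cannot be told apart.

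**Figure D2:**
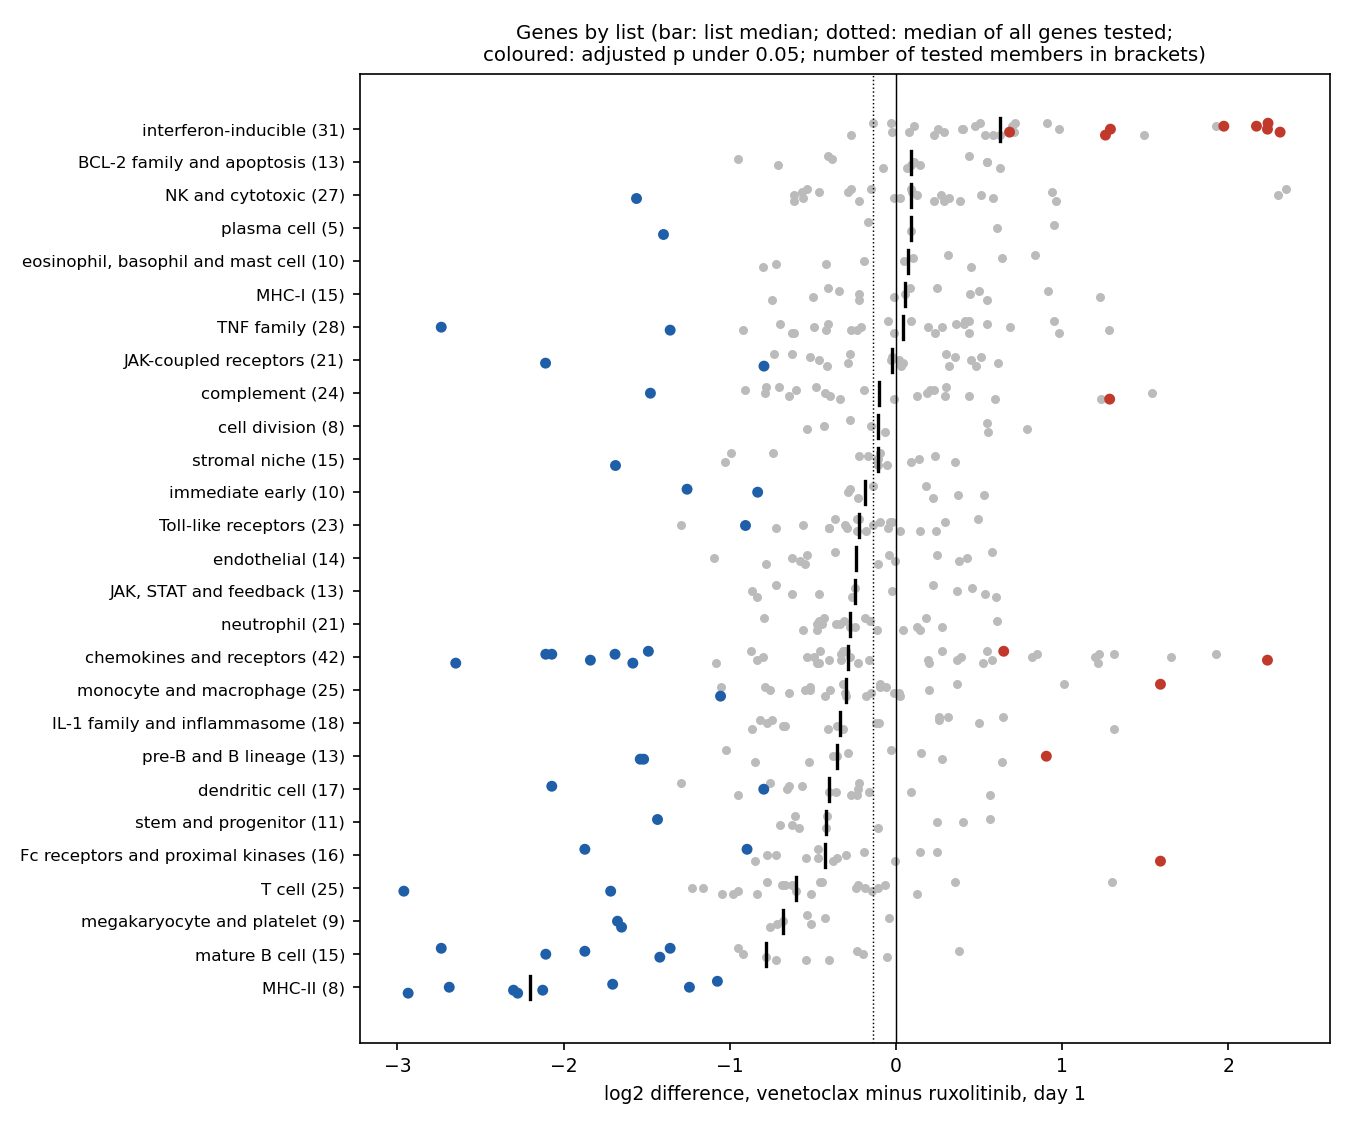
Log2 difference, venetoclax minus ruxolitinib, of every tested gene by list (x axis), with the list median as a black bar and the median of all genes tested (-0.14) as a dotted line. Coloured points passed the test (red higher, blue lower after venetoclax); the 8 MHC-II genes lie between -2.94 and -1.07, and the 8 coloured IFN-inducible genes between 0.68 and 2.31.

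All 8 tested MHC-II genes were lower after venetoclax than after ruxolitinib. The study named 6 of them from these samples, so their count is not independent evidence of the direction. The summed normalised count of the 8 genes was between 483 and 697 in the venetoclax-treated mice and between 2260 and 2817 in the ruxolitinib-treated mice, with the 4 vehicle-treated mice between 1203 and 1640. H2-Aa, the alpha chain of I-A, had 66.6, 103 and 76.4 normalised counts after venetoclax and 422, 652 and 597 after ruxolitinib (log2 difference -2.69 ± 0.38, adjusted p = 6.45e-06). For H2-Ab1, the beta chain of I-A, the mice had 111, 146 and 119 normalised counts with venetoclax and 419, 418 and 423 with ruxolitinib, a log2 difference of -1.71 ± 0.24 (adjusted p = 6.04e-06). H2-Eb1 encodes the beta chain of I-E, and its normalised counts were 77.6, 108 and 55.2 after venetoclax against 338, 386 and 378 after ruxolitinib (log2 difference -2.13 ± 0.28, adjusted p = 3.42e-06). These are fitted differences of 6.45-fold, 3.26-fold and 4.37-fold with ruxolitinib the higher, and the groups did not overlap. Normalised counts of Cd74, the invariant chain that guards the peptide groove during assembly, were 161, 273 and 180.3 with venetoclax against 811, 1109 and 1163 with ruxolitinib, which is a log2 difference of -2.28 ± 0.33 (adjusted p = 9.42e-06). As for H2-DMb2, a beta chain of the H2-DM peptide exchange factor, venetoclax-treated mice stood at 11.1, 10.6 and 10.6 and ruxolitinib-treated mice at 92.9, 80.9 and 72.7 normalised counts (log2 difference -2.94 ± 0.35, adjusted p = 9.34e-07). The 3 venetoclax-treated mice stood at nearly the same H2-DMb2 level, although the shallow lane reached it with 2 raw counts and was not above background there.

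The remaining 3 members also passed. H2-Ob, a chain of H2-DO, which restrains H2-DM, stood at 38.8, 37.4 and 78.5 normalised counts in the venetoclax group and at 119.9, 119 and 121 in the ruxolitinib group, with a log2 difference of -1.24 ± 0.30 (adjusted p = 0.00557). Venetoclax replicate 3 lay higher than its group, and without venetoclax replicate 2 the H2-Ob difference was -0.91 with an adjusted p = 0.153. Ciita, the MHC-II coactivator, had 5.55, 5.61 and 2.12 normalised counts after venetoclax and 29.5, 18.7 and 24.1 after ruxolitinib (log2 difference -2.30 ± 0.39, adjusted p = 0.000132). Of the 3 venetoclax lanes 1 was above background for Ciita, and without replicate 2 of that group the difference was -2.92 (adjusted p = 0.0122). For H2-DMb1, the other H2-DM beta chain, the mice had 11.1, 13.1 and 14.8 normalised counts with venetoclax and 27.6, 33.9 and 22.97 with ruxolitinib, a log2 difference of -1.07 ± 0.32 (adjusted p = 0.0281). H2-DMb1 and H2-DMb2 are close copies and their probes may share signal. Ciita and H2-DMb1 lie outside the naming rule and were named after their values were seen. Without venetoclax replicate 1, 7 of the 8 members passed, and without replicate 2, 6 passed.

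**Figure D3:**
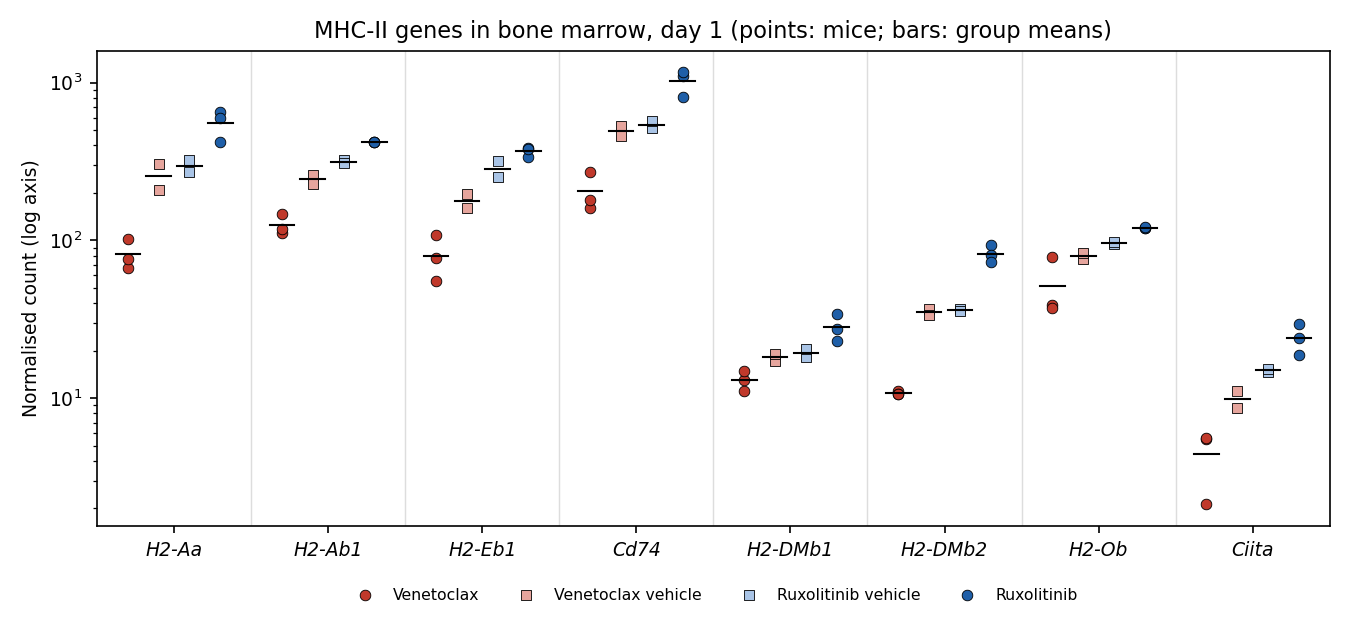
Normalised counts of the 8 MHC-II genes (y axis, log scale) in every day 1 mouse of the 4 treatment groups; points are mice and bars group means. For 7 of the 8 genes the 4 vehicle-treated mice lie between the venetoclax- and the ruxolitinib-treated mice; for H2-Ob venetoclax replicate 3, at 78.5, lies among the vehicle-treated mice.

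In 7 of the 8 genes, all but H2-Ob, each vehicle-treated mouse lay above all venetoclax-treated mice and below all ruxolitinib-treated mice. MHC-II genes were tested against their own vehicles as well: 0 of 8 passed for venetoclax, with a median log2 difference of -1.07, against 0.153% of all genes tested, and 1 of 8 passed as higher for ruxolitinib, with a median of 0.59, against 0.763%. The member that passed was H2-DMb2, higher after ruxolitinib by 1.19 ± 0.29 on the log2 scale, adjusted p = 0.0103. Markers of MHC-II bearing cells were read beside these values. The mature B cell list, whose 15 tested genes had 5 lower and 0 higher after venetoclax, summed to 714 to 817 normalised counts after venetoclax and 927 to 1030 after ruxolitinib. The dendritic cell list had 2 of 17 lower (Irf8 and Ccr9, the latter not above background in any venetoclax lane), against 7.79% of all genes tested, and summed to 346 to 425 against 532 to 577. Further, the monocyte and macrophage list had 1 lower and 1 higher of 25 and overlapped, at 5796 to 8905 against 6218 to 9744. The part of these cells in the MHC-II difference was not tested.

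Promoters of 5 of the 8 MHC-II genes were found in the RefSeq table of mouse build GRCm38.p6, each covering 300 bases around the gene start. All 5 hold the Y box core CCAAT on either strand, one of the elements that MHC-II promoters are known for; so do 36.9% of the 482 tested genes with a promoter and 41.1% of the 27025 genes of the table, so the match describes these windows and marks no bound site. The 150 bases upstream of the start are shown for the 3 genes with the largest fold difference among them, on the strand of the gene, with the Y box in capitals (CCAAT, or ATTGG where it lies on the opposite strand). H2-Aa lies on the minus strand at chr17:34287824-34287973, H2-Eb1 on the plus strand at chr17:34305717-34305866, and H2-DMb2 on the plus strand at chr17:34145099-34145248.
H2-Aa: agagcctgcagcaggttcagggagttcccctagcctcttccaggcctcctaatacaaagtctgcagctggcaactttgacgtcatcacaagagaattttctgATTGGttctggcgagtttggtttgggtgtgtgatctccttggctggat
H2-Eb1: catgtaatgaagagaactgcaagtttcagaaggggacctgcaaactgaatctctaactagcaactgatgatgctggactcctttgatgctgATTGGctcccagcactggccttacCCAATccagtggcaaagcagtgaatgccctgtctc
H2-DMb2: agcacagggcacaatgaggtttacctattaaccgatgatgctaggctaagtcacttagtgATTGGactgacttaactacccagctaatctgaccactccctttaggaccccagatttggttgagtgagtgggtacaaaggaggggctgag

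The products of MHC-I genes present peptides to CD8+ T cells on nearly all cells. Of 15 tested members 0 passed, against 9.92% of all genes tested. Of the estimates 8 lay above 0 and 7 below, and the median was 0.05. Tap2 encodes a subunit of the peptide transporter, and its normalised counts were 88.7, 78.5 and 127 after venetoclax against 55.9, 56.6 and 42.1 after ruxolitinib (log2 difference 0.91 ± 0.31, adjusted p = 0.0558). Normalised counts of Tap1, the other subunit, were 155, 134 and 93.3 with venetoclax against 109, 88.2 and 77.7 with ruxolitinib, which is a log2 difference of 0.45 ± 0.20 (adjusted p = 0.198). As for H2-Q10, a secreted class I protein, venetoclax-treated mice stood at 33.3, 39.9 and 31.8 and ruxolitinib-treated mice at 64.6, 62.8 and 56.3 normalised counts (log2 difference -0.75 ± 0.25, adjusted p = 0.0558). Both Tap2 and H2-Q10 lie close to the threshold: of 12 alternatives that kept every mouse, Tap2 passed in 7 (adjusted p from 0.00243 to 0.281) and H2-Q10 in 6 (adjusted p from 0.0147 to 0.347). For the classical heavy chains the log2 differences were -0.35 (H2-K1) and -0.22 (H2-D1).

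Of 31 tested IFN-inducible genes 8 were higher after venetoclax than after ruxolitinib and 0 were lower. Of the 31, 27 estimates lay above 0, against 272 of all 655 genes tested. In 12 members all venetoclax-treated mice lay above all ruxolitinib-treated mice, against 7.48% of all genes tested. The summed count of the list was 1279 to 1494 after venetoclax and 1081 to 1136 after ruxolitinib, with the 4 vehicle-treated mice at 1572 to 1716, above all mice of both drugs. Oas2, a sensor of double-stranded RNA that activates RNase L, stood at 66.6, 63.5 and 25.5 normalised counts in the venetoclax group and at 11.3, 7.92 and 12.03 in the ruxolitinib group, with a log2 difference of 2.31 ± 0.31 (adjusted p = 3.99e-06). Ifit3, an inhibitor of viral RNA translation, had 16.6, 52.3 and 14.8 normalised counts after venetoclax and 8.16, 8.48 and 6.02 after ruxolitinib (log2 difference 2.24 ± 0.42, adjusted p = 0.000433). For Isg15, a ubiquitin-like modifier, the mice had 5.55, 13.7 and 19.1 normalised counts with venetoclax and 3.14, 3.96 and 2.19 with ruxolitinib, a log2 difference of 2.17 ± 0.44 (adjusted p = 0.00109). Oas2 was above background in all 6 lanes and was higher in every venetoclax-treated mouse, whereas Isg15 was above background in 2 venetoclax lanes and 1 ruxolitinib lane. Ifit3 in venetoclax replicate 2 stood far above the other mice of its group, and without that mouse its difference was 1.02 with an adjusted p = 0.424. In venetoclax replicate 1 Ifit3, at 16.6, was not above the background of 24.4 normalised counts.

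A further 5 members passed. Cmpk2 encodes a nucleotide kinase of the mitochondrion, and its normalised counts were 116, 91.6 and 55.2 after venetoclax against 51.5, 52.04 and 54.2 after ruxolitinib (log2 difference 0.68 ± 0.21, adjusted p = 0.0315). Normalised counts of Oas3, another oligoadenylate synthetase, were 33.3, 24.9 and 14.8 with venetoclax against 7.53, 9.05 and 11.5 with ruxolitinib, which is a log2 difference of 1.29 ± 0.35 (adjusted p = 0.0129). As for Zbp1, a sensor of Z-form nucleic acid, venetoclax-treated mice stood at 55.5, 29.9 and 12.7 and ruxolitinib-treated mice at 13.8, 14.1 and 7.66 normalised counts (log2 difference 1.26 ± 0.38, adjusted p = 0.0281). Zbp1 overlapped between the groups, with venetoclax replicate 3 below the highest ruxolitinib-treated mouse. Oasl1, an oligoadenylate synthetase-like protein, stood at 11.1, 20.6 and 8.48 normalised counts in the venetoclax group and at 6.28, 2.83 and 3.28 in the ruxolitinib group, with a log2 difference of 1.97 ± 0.45 (adjusted p = 0.00379). Cxcl10, a chemokine that draws CXCR3+ lymphocytes, had 16.6, 13.7 and 6.36 normalised counts after venetoclax and 0.628, 2.83 and 3.83 after ruxolitinib (log2 difference 2.24 ± 0.53, adjusted p = 0.00444). Without venetoclax replicate 2 the Oasl1 difference was 1.17 (adjusted p = 0.438), and with limma after background subtraction it was 0.65 (adjusted p = 0.699). Oasl1 and Cxcl10 were near background after ruxolitinib, where 1 of 3 lanes exceeded it for each. In venetoclax replicate 1 neither gene was above the background of that lane, 24.4 normalised counts. Oas3, Oasl1, Zbp1 and Cxcl10 lie outside the naming rule, and probes of the Oas family may share signal.

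Rsad2, another member of the list, did not pass. For Rsad2, viperin, an antiviral radical SAM enzyme, the mice had 33.3, 42.4 and 40.3 normalised counts with venetoclax and 21.97, 31.7 and 19.7 with ruxolitinib, a log2 difference of 0.72 ± 0.30 (adjusted p = 0.137). The groups did not overlap for Rsad2. The study also names genes of the IFNs themselves and Klrb1, which are not in the list. Normalised counts of Ifna1, an IFN alpha, were 5.55, 1.87 and 16.97 with venetoclax against 2.51, 2.83 and 1.64 with ruxolitinib, which is a log2 difference of 1.45 ± 0.75 (adjusted p = 0.281). Ifna1 was above background in 1 of the 6 lanes. Ifnb1 and Ifng, which encode IFN beta and IFN gamma, were above background in none of the 6 lanes and were not tested. Klrb1, an inhibitory receptor of NK cells, stood at 5.55, 3.11 and 6.36 normalised counts after venetoclax and 3.77, 3.96 and 3.83 after ruxolitinib (log2 difference 0.13 ± 0.74, adjusted p = 0.951).

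The number of IFN-inducible genes that passed was sensitive to the lanes and to background. Without venetoclax replicate 2 only Oas2 and Isg15 passed, without replicate 1 there were 7 and without replicate 3 there were 10. Subtraction of the negative control mean before limma left 1 (Oas2).

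**Figure D4:**
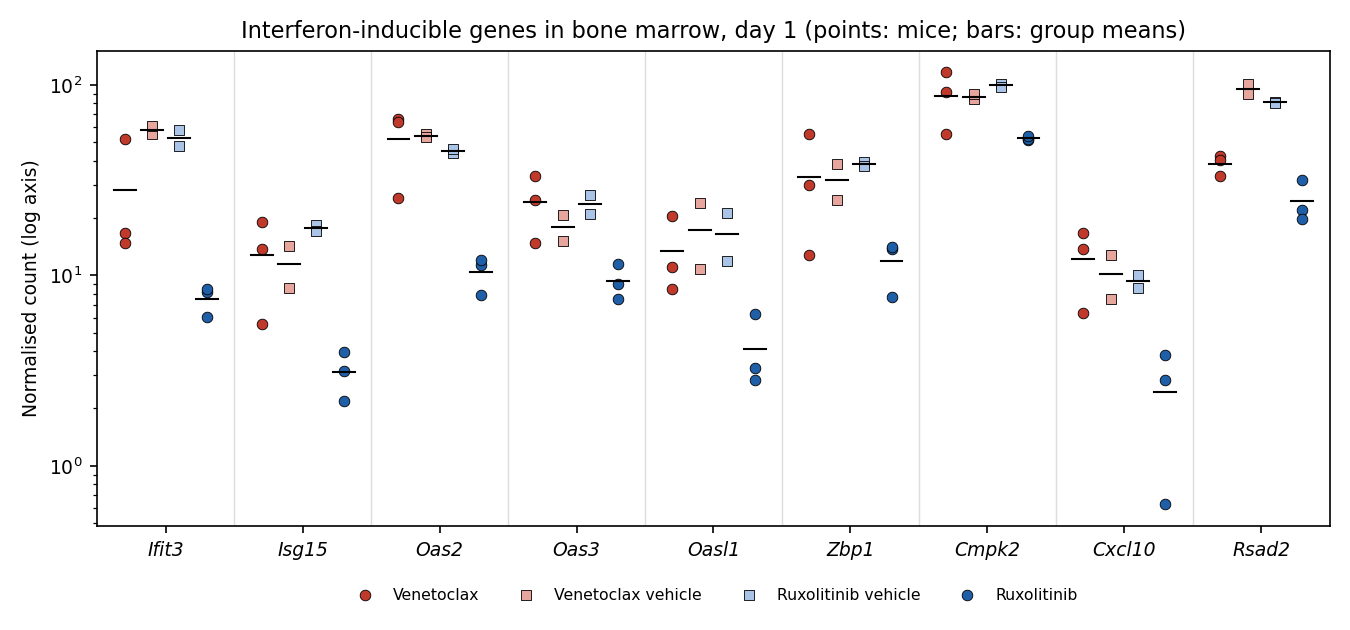
Normalised counts of 9 IFN-inducible genes (y axis, log scale) in every day 1 mouse of the 4 treatment groups; points are mice and bars group means. Ruxolitinib-treated mice are the lowest group for all 9 by mean, venetoclax-treated mice lie among or near the vehicle-treated mice for most of them, and for Rsad2 both drugs lie below all 4 vehicle-treated mice.

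All 8 IFN-inducible genes that passed had every vehicle-treated mouse above every ruxolitinib-treated mouse while vehicle- and venetoclax-treated mice overlapped. Against their own vehicles, 13 of the 31 members were lower after ruxolitinib, against 1.98% of all genes tested, and 0 of 31 passed for venetoclax, with medians of -0.98 and -0.15. For Oas2 the difference from the vehicle was -2.10 ± 0.31 on the log2 scale, adjusted p = 3.24e-05 with ruxolitinib and -0.06 ± 0.31 on the log2 scale, adjusted p = 0.978 with venetoclax. Rsad2 had -1.73 ± 0.28 on the log2 scale, adjusted p = 5.63e-05 with ruxolitinib and -1.24 ± 0.30 on the log2 scale, adjusted p = 0.0529 with venetoclax.

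Promoter windows were available for 6 of the 8 IFN-inducible genes that passed, and 4 hold the ISRE core, a pair of GAAA half-sites with 2 bases between them, on either strand. So do 9 of 18 members that did not pass, 9.13% of tested genes and 3.99% of the table. None of the 6 holds the STAT dimer motif TTCNNNGAA, which is in 13.3% of tested genes. The 2 windows shown have their ISRE cores within the 150 bases before the start, capitals marking the core; in Isg15 3 matches overlap. Isg15 lies on the minus strand at chr4:156200819-156200968 and Oas3 on the minus strand at chr5:120777660-120777809.
Isg15: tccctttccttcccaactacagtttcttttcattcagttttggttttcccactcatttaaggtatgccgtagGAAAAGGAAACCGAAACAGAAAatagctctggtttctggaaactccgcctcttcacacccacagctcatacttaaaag
Oas3: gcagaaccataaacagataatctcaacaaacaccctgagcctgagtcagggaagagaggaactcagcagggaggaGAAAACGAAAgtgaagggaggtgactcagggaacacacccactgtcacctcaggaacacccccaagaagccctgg

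Of 15 mature B cell genes 5 were lower after venetoclax, and of 13 pre-B and B lineage genes 2 were lower and 1 was higher, against 7.79% lower and 2.14% higher over all genes tested. As for Tnfrsf13c, the BAFF receptor, a survival receptor of mature B cells, venetoclax-treated mice stood at 11.1, 2.49 and 6.36 and ruxolitinib-treated mice at 21.97, 32.8 and 29.5 normalised counts (log2 difference -2.74 ± 0.52, adjusted p = 0.000542). Cxcr5, the receptor that guides B cells to follicles, stood at 5.55, 3.74 and 2.12 normalised counts in the venetoclax group and at 11.9, 15.3 and 19.1 in the ruxolitinib group, with a log2 difference of -2.11 ± 0.46 (adjusted p = 0.00226). Without venetoclax replicate 2 the Tnfrsf13c difference was -1.85 with an adjusted p = 0.12. For both genes 1 venetoclax lane was above background against 3 ruxolitinib lanes. Ltb, lymphotoxin beta, had 27.7, 29.9 and 10.6 normalised counts after venetoclax and 62.8, 61.1 and 61.8 after ruxolitinib (log2 difference -1.36 ± 0.38, adjusted p = 0.0163). For Ms4a1, CD20, the mice had 44.4, 23.05 and 33.9 normalised counts with venetoclax and 79.1, 92.2 and 65.1 with ruxolitinib, a log2 difference of -1.42 ± 0.37 (adjusted p = 0.00964). Fcer2a encodes CD23, and its normalised counts were 5.55, 3.11 and 2.12 after venetoclax against 6.28, 11.9 and 16.4 after ruxolitinib (log2 difference -1.87 ± 0.61, adjusted p = 0.046). Ms4a1 and Fcer2a lie outside the naming rule, and the Ltb difference without venetoclax replicate 2 was -1.96 (adjusted p = 0.0412). Ltb passed in 5 of the 6 fits that left out a mouse, with differences from -1.96 to -1.07 and adjusted p-values up to 0.135. It passed in 10 of 12 alternatives that kept every mouse, with adjusted p-values up to 0.265. Fcer2a had the weakest call of the 5, with 1 venetoclax lane above background and 1 of 6 fits passing when single mice were left out.

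Normalised counts of Cd79b, a signalling chain of the B cell receptor, were 66.6, 67.9 and 33.9 with venetoclax against 168, 172 and 155 with ruxolitinib, which is a log2 difference of -1.54 ± 0.39 (adjusted p = 0.00865). As for Blnk, an adaptor below that receptor, venetoclax-treated mice stood at 5.55, 16.2 and 12.7 and ruxolitinib-treated mice at 46.4, 41.3 and 33.9 normalised counts (log2 difference -1.52 ± 0.45, adjusted p = 0.0263). Igll1, a chain of the surrogate light chain of pre-B cells, stood at 99.8, 83.5 and 65.8 normalised counts in the venetoclax group and at 46.4, 50.3 and 32.8 in the ruxolitinib group, with a log2 difference of 0.90 ± 0.29 (adjusted p = 0.0431). Igll1 thus went in the opposite direction to Cd79b and Blnk, with vehicle-treated mice at 69.3 to 92.8 counts, above the ruxolitinib-treated mice and within the range of the venetoclax-treated mice. Pax5, the transcription factor of B lineage commitment, did not pass, with a log2 difference of -0.03. Of the 6 fits that left out a mouse, Blnk passed in 1, with adjusted p-values up to 0.122 in the others, and Igll1 in none. The lowest venetoclax value of Blnk, 5.55, is a single raw count of the shallow lane.

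Btla and Icosl, in none of the lists, and Ccr6, Il21r and Cd38, each of another list, were also lower. Btla, an inhibitory receptor of lymphocytes, had 11.1, 23.7 and 44.5 normalised counts after venetoclax and 81.6, 82.02 and 79.9 after ruxolitinib (log2 difference -1.53 ± 0.27, adjusted p = 0.000192). For Icosl, the ligand of ICOS on antigen-presenting cells, the mice had 27.7, 19.3 and 16.97 normalised counts with venetoclax and 55.9, 56.00 and 59.1 with ruxolitinib, a log2 difference of -1.53 ± 0.29 (adjusted p = 0.000575). Ccr6 encodes a chemokine receptor of B cells and some T cells, and its normalised counts were 5.55, 1.87 and 2.12 after venetoclax against 21.97, 11.9 and 10.4 after ruxolitinib (log2 difference -2.65 ± 0.57, adjusted p = 0.00182). No venetoclax lane was above background for Ccr6. Normalised counts of Il21r, the receptor of IL-21, were 5.55, 8.10 and 2.12 with venetoclax against 26.4, 27.1 and 30.6 with ruxolitinib, which is a log2 difference of -2.11 ± 0.43 (adjusted p = 0.00113). Without venetoclax replicate 2 the Il21r difference was -3.15 (adjusted p = 0.0225). Il21r was not above background in venetoclax replicates 1 and 3, where background was 24.4 and 3.89 normalised counts. As for Cd38, an ectoenzyme of plasma cells and activated lymphocytes, venetoclax-treated mice stood at 5.55, 13.1 and 14.8 and ruxolitinib-treated mice at 23.2, 42.99 and 34.5 normalised counts (log2 difference -1.40 ± 0.45, adjusted p = 0.0397). Ruxolitinib-treated mice were close together for Btla, from 79.9 to 82.0, while venetoclax-treated mice ranged from 11.1 to 44.5. The 11.1 of Btla and the 5.55 of Cd38 are from the shallow lane and are below its background of 24.4 normalised counts.

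**Figure D5:**
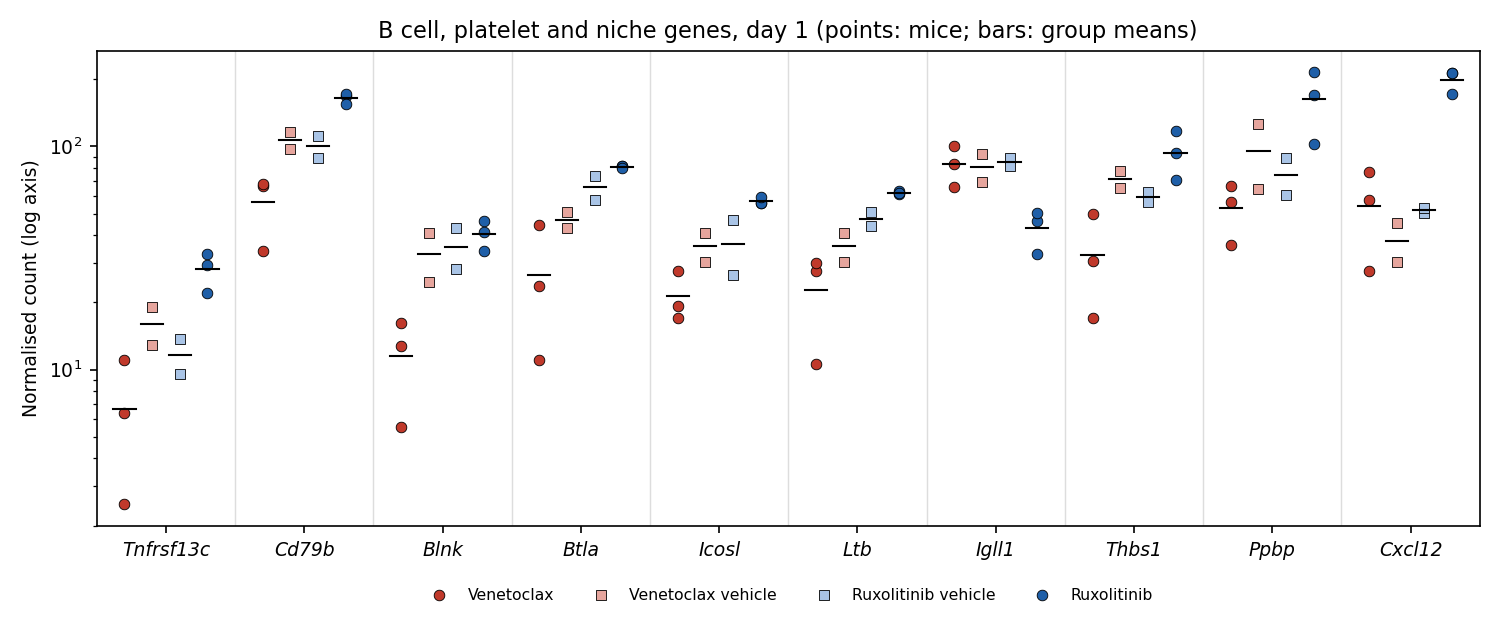
Normalised counts of 7 B cell genes, 2 platelet genes and the niche chemokine Cxcl12 (y axis, log scale) in every day 1 mouse of the 4 treatment groups; points are mice and bars group means. Igll1 is the gene in which ruxolitinib-treated mice are the lowest group, and Cxcl12 is the one in which they stand far above all other mice.

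Of 25 T cell genes, 22 estimates were below 0, against 383 of all 655 genes tested. Only 2 passed as lower, a share close to the 7.79% of all genes tested. Tcf7, the transcription factor TCF-1 of naive T cells and progenitors, stood at 5.55, 1.87 and 2.12 normalised counts in the venetoclax group and at 16.9, 16.97 and 20.2 in the ruxolitinib group, with a log2 difference of -2.96 ± 0.59 (adjusted p = 0.00102). None of the 3 venetoclax lanes was above background for Tcf7. Cd2, an adhesion molecule of T and NK cells, had 11.1, 7.47 and 6.36 normalised counts after venetoclax and 28.2, 16.97 and 30.1 after ruxolitinib (log2 difference -1.72 ± 0.50, adjusted p = 0.0225). For Cd3e, a chain of the T cell receptor complex, the mice had 11.1, 7.47 and 4.24 normalised counts with venetoclax and 8.79, 11.3 and 12.03 with ruxolitinib, a log2 difference of -0.60 ± 0.41 (adjusted p = 0.41). Cd3e was read for comparison and did not pass. Both T cell calls were lost without venetoclax replicate 2, at -2.51 for Tcf7 (adjusted p = 0.111) and -1.68 for Cd2 (adjusted p = 0.24), and Cd2 passed in 2 of the 6 fits that left out a mouse. The NK and cytotoxic list had 1 of 27 members lower, a smaller share than the 7.79% of all genes tested, and a median of 0.09. Klrd1 encodes CD94, part of an inhibitory receptor of NK cells, and its normalised counts were 11.1, 8.72 and 8.48 after venetoclax against 22.6, 28.3 and 28.4 after ruxolitinib (log2 difference -1.56 ± 0.38, adjusted p = 0.00528). Klrd1 passed in 5 of the 6 fits that left out a mouse, with adjusted p-values up to 0.139. Normalised counts of Klra20, a Ly49 receptor, were 11.1, 4.36 and 4.24 with venetoclax against 1.88, 0.566 and 0.547 with ruxolitinib, which is a log2 difference of 2.30 ± 0.87 (adjusted p = 0.103). Ly49 probes may share signal among near copies.

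Of 9 megakaryocyte and platelet genes 2 were lower after venetoclax, against 7.79% of all genes tested. All 9 tested members had estimates below 0, against 383 of all 655 genes tested. In 7 of them the groups did not overlap, against 19.1% of all genes tested in that direction. The list summed to 390 to 505 normalised counts after venetoclax, 706 to 910 after ruxolitinib and 548 to 713 in vehicle-treated mice. As for Thbs1, thrombospondin 1 of platelet granules, venetoclax-treated mice stood at 49.9, 30.5 and 16.97 and ruxolitinib-treated mice at 70.9, 117 and 92.99 normalised counts (log2 difference -1.68 ± 0.36, adjusted p = 0.00166). Ppbp, platelet basic protein, stood at 66.6, 56.1 and 36.1 normalised counts in the venetoclax group and at 169, 214 and 102 in the ruxolitinib group, with a log2 difference of -1.65 ± 0.43 (adjusted p = 0.00975). For Itga2b, the alpha chain of the platelet fibrinogen receptor, the log2 difference was -0.68 with an adjusted p = 0.16. Vehicle-treated mice overlapped both drugs for Ppbp and only the venetoclax-treated mice stood apart for Thbs1.

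Cxcl12, the chemokine by which stromal cells hold stem cells and B cell precursors in BM, had 27.7, 76.6 and 57.3 normalised counts after venetoclax and 212, 212 and 171 after ruxolitinib (log2 difference -1.69 ± 0.40, adjusted p = 0.00444). The vehicle-treated mice lay between 30.2 and 53.1, so that ruxolitinib-treated mice stood above all 4 of them while venetoclax-treated mice overlapped them. Against its own vehicle Cxcl12 was higher after ruxolitinib by 1.93 ± 0.43 on the log2 scale, adjusted p = 0.00533. Of the 15 tested stromal niche genes Cxcl12 alone passed in the direct contrast (6.67%), a share close to the 7.79% of all genes tested, and the list median was -0.11. For Cxcl14, a chemokine of stromal and epithelial cells, the mice had 5.55, 8.10 and 4.24 normalised counts with venetoclax and 18.8, 23.2 and 16.4 with ruxolitinib, a log2 difference of -1.49 ± 0.46 (adjusted p = 0.0341). Cxcl14 lies outside the naming rule, and it too stood above all 4 vehicle-treated mice after ruxolitinib. Csf1 encodes the growth factor of macrophages, and its normalised counts were 16.6, 8.72 and 4.24 after venetoclax against 23.2, 13.01 and 14.8 after ruxolitinib (log2 difference -0.99 ± 0.39, adjusted p = 0.109). Normalised counts of Slamf1, CD150, a marker of stem cells and lymphocytes, were 5.55, 5.61 and 2.12 with venetoclax against 11.3, 15.3 and 12.6 with ruxolitinib, which is a log2 difference of -1.44 ± 0.46 (adjusted p = 0.0397). Slamf1 was the 1 stem and progenitor gene of 11 that passed (9.09%, against 7.79% of all genes tested), with 1 venetoclax lane above background, and without venetoclax replicate 2 its difference was -2.05 with an adjusted p = 0.151.

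The neutrophil list, with a median of -0.28 and 0 of 21 genes passing, against 9.92% of all genes tested, overlapped between the groups. Single genes of monocytes, macrophages and dendritic cells passed in both directions. As for Fcgr1, the high affinity IgG receptor of monocytes and an IFN-responsive gene, venetoclax-treated mice stood at 16.6, 14.3 and 16.97 and ruxolitinib-treated mice at 5.02, 5.09 and 4.92 normalised counts (log2 difference 1.59 ± 0.49, adjusted p = 0.0322). Trem2, a lipid receptor of macrophages, stood at 44.4, 29.9 and 44.5 normalised counts in the venetoclax group and at 15.1, 19.8 and 17.5 in the ruxolitinib group, with a log2 difference of 1.05 ± 0.29 (adjusted p = 0.0145). Axl, a receptor tyrosine kinase for dying cells, had 27.7, 33.6 and 25.5 normalised counts after venetoclax and 50.2, 73.5 and 65.6 after ruxolitinib (log2 difference -1.06 ± 0.24, adjusted p = 0.00278). Fcgr1 was lowest after ruxolitinib, where vehicle-treated mice had 11.9 to 19.1 counts, and Trem2 was highest after venetoclax, where they had 12.9 to 19.1. Fcgr1 passed in 0 of the 6 fits that left out a mouse, with adjusted p-values up to 0.168. In venetoclax replicate 1 Fcgr1 was not above background. For Irf8, a transcription factor of monocytes and dendritic cells, the mice had 66.6, 90.9 and 76.4 normalised counts with venetoclax and 136, 144 and 143 with ruxolitinib, a log2 difference of -0.80 ± 0.23 (adjusted p = 0.023). Ccr9 encodes a chemokine receptor of plasmacytoid dendritic cells, and its normalised counts were 11.1, 1.87 and 2.12 after venetoclax against 13.2, 8.48 and 13.7 after ruxolitinib (log2 difference -2.07 ± 0.62, adjusted p = 0.0263). No venetoclax lane was above background for Ccr9, and its groups overlapped. Without venetoclax replicate 2 the Ccr9 difference was -1.31 with an adjusted p = 0.438, and it passed in 2 of the 6 fits that left out a mouse.

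Chemokines and their receptors held 2 genes that were higher and 7 that were lower of 42, several already given, against 2.14% and 7.79% of all genes tested. Normalised counts of Ccl9, a chemokine of myeloid cells, were 372, 376 and 373 with venetoclax against 243, 258 and 215 with ruxolitinib, which is a log2 difference of 0.65 ± 0.20 (adjusted p = 0.0281). As for Ccl6, a related chemokine, venetoclax-treated mice stood at 5.55, 11.8 and 8.48 and ruxolitinib-treated mice at 28.2, 44.7 and 38.3 normalised counts (log2 difference -1.84 ± 0.46, adjusted p = 0.0071). Ccr1, a receptor of both, stood at 5.55, 16.8 and 16.97 normalised counts in the venetoclax group and at 47.1, 40.2 and 53.1 in the ruxolitinib group, with a log2 difference of -1.58 ± 0.37 (adjusted p = 0.00444). Ccl9 was close to constant among the venetoclax-treated mice, at 372 to 376, while Ccl6 and Ccr1 went the other way. The lowest venetoclax value of Ccl6 and of Ccr1, 5.55, is a single raw count of the shallow lane.

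Of 10 immediate early genes Dusp6 and Nfkbia were lower and 0 were higher, against 7.79% lower over all genes tested, and the other genes of this paragraph are from other lists or none. Dusp6, a phosphatase that limits ERK, had 83.2, 94.1 and 59.4 normalised counts after venetoclax and 147, 152 and 130.2 after ruxolitinib (log2 difference -0.83 ± 0.24, adjusted p = 0.0215). For Nfkbia, the inhibitor of NF-kB, the mice had 11.1, 11.2 and 8.48 normalised counts with venetoclax and 18.2, 27.1 and 30.1 with ruxolitinib, a log2 difference of -1.26 ± 0.40 (adjusted p = 0.0397). Il10ra encodes the IL-10 receptor, and its normalised counts were 38.8, 25.5 and 21.2 after venetoclax against 47.1, 42.4 and 46.5 after ruxolitinib (log2 difference -0.79 ± 0.25, adjusted p = 0.0339). Normalised counts of Fyn, a Src family kinase, were 33.3, 30.5 and 16.97 with venetoclax against 48.3, 49.8 and 52.5 with ruxolitinib, which is a log2 difference of -0.90 ± 0.27 (adjusted p = 0.0281). As for Tlr1, a Toll-like receptor for lipopeptides, venetoclax-treated mice stood at 5.55, 21.2 and 23.3 and ruxolitinib-treated mice at 35.8, 33.9 and 42.1 normalised counts (log2 difference -0.91 ± 0.29, adjusted p = 0.0397). Fyn passed in 2 of the 6 fits that left out a mouse and in 6 of 12 other alternatives. Tlr1 passed in 0 of the 6 fits that left out a mouse and in 6 of 12 other alternatives, and its lowest venetoclax value is the 1 raw count of the shallow lane. In contrast, Ikbke, a kinase of the IFN and NF-kB pathways, stood at 122, 148 and 208 after venetoclax against 82.8, 53.7 and 74.9 after ruxolitinib, a log2 difference of 1.20 ± 0.32 (adjusted p = 0.0112). Each of the 3 venetoclax-treated mice was above all ruxolitinib- and vehicle-treated mice for Ikbke. Cd55, a brake on complement at the cell surface, stood at 33.3, 28.7 and 36.1 after venetoclax against 119, 69.01 and 77.1 after ruxolitinib, a log2 difference of -1.48 ± 0.30 (adjusted p = 0.00113).

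A further 12 genes in none of the lists were lower after venetoclax and lie outside the naming rule. They included Txnip, an inhibitor of thioredoxin (log2 difference -0.80 ± 0.21, adjusted p = 0.0119), and Mef2c, a transcription factor of B cells and megakaryocytes (log2 difference -1.57 ± 0.40, adjusted p = 0.00865). Others were Abca1, Cd164, Cmah, Ets1, Mapk11, Rela, Ripk2, Smad4 and Tgfbr2, and these had log2 differences from -1.81 (Mapk11) to -0.65 (Ets1). The other 14 genes of the naming rule did not pass, with log2 differences from -1.30 (Tlr7) to 0.95 (Tnfrsf17) and adjusted p-values from 0.109 (Tlr7) to 0.514 (Tnfrsf17).

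Transcripts of the drug targets did not pass in the edgeR model of all 33 lanes. Bcl2 encodes the target of venetoclax, and its normalised counts were 22.2, 24.9 and 33.9 after venetoclax against 50.2, 35.6 and 47.6 after ruxolitinib (log2 difference -0.71 ± 0.33, adjusted p = 0.2). Normalised counts of Jak1, a target of ruxolitinib, were 149.7, 135 and 76.4 with venetoclax against 167, 192 and 187 with ruxolitinib, which is a log2 difference of -0.62 ± 0.27 (adjusted p = 0.171). As for Jak2, the other, venetoclax-treated mice stood at 66.6, 33.6 and 25.5 and ruxolitinib-treated mice at 64.6, 66.2 and 67.8 normalised counts (log2 difference -0.87 ± 0.34, adjusted p = 0.109). Jak2 passed without the shallow venetoclax replicate 1 (-1.10, adjusted p = 0.0431) and in 2 of 12 alternatives that kept every mouse, and Bcl2 and Jak1 passed in 1 each, a fit of the day 1 lanes alone (adjusted p = 0.0419 and 0.0239). All 3 estimates were below 0, and for Jak1 and Jak2 the ruxolitinib-treated mice were close together. Of 13 BCL-2 family and apoptosis genes and 13 JAK, STAT and feedback genes none passed, against 9.92% of all genes tested. The medians were 0.09 and -0.25. Among receptors that signal through JAK kinases, Il21r and Il10ra were lower, 2 of 21, a share close to the 7.79% of all genes tested. The feedback inhibitors Socs1 and Socs3 had log2 differences of -0.72 and 0.60. Lists of cell division (8 genes), endothelial cells (14), IL-1 family (18) and eosinophils, basophils and mast cells (10) also had 0 genes that passed. The share over all genes tested was again 9.92%.

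The vehicles, each given at the dosing frequency of its drug, were compared in the 4 vehicle-treated mice. No gene passed (0 of 655, 0%) by edgeR, DESeq2 or limma, and 17 had an unadjusted p-value under 0.05 by edgeR. With 2 mice against 2 this does not show that the vehicles act alike. For H2-Eb1 the difference between the vehicles was -0.68 ± 0.31 on the log2 scale, adjusted p = 0.992, with the venetoclax vehicle the lower, and for Cxcr5 -0.98 ± 0.48 on the log2 scale, adjusted p = 0.992. Where the vehicle-treated mice lay was then recorded for the 65 genes. Of the 51 lower after venetoclax, 13 had all 4 vehicle-treated mice between the drugs, 16 had them apart from the venetoclax-treated mice only, 15 apart from the ruxolitinib-treated mice only, and 7 overlapping both. Of the 14 higher, 10 had them apart from the ruxolitinib-treated mice only, 3 apart from the venetoclax-treated mice only (Ccl9, Ikbke and Trem2), and 1 overlapping both.

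When each drug was expressed relative to its own vehicle, the difference between the drugs passed for 11 genes (1.68%), 3 higher (0.458%) and 8 lower (1.22%). This count depended on the method, with 0 genes by limma after background subtraction, 1 by limma, 7 by DESeq2 and 61 in edgeR fits of only the groups compared or only the day 1 lanes. Higher were Isg15 (2.74 ± 0.58 on the log2 scale, adjusted p = 0.0102), Ifit3 (2.12 ± 0.56 on the log2 scale, adjusted p = 0.0385) and Oas2 (2.05 ± 0.44 on the log2 scale, adjusted p = 0.0102). Among the lower were the MHC-II genes H2-DMb2 (-2.89 ± 0.50 on the log2 scale, adjusted p = 0.00112), H2-Aa (-2.48 ± 0.56 on the log2 scale, adjusted p = 0.0132), Cd74 (-2.14 ± 0.50 on the log2 scale, adjusted p = 0.0172) and H2-Ab1 (-1.33 ± 0.36 on the log2 scale, adjusted p = 0.0458). Also among the 8 were Tnfrsf13c, Tcf7 and Thbs1, with log2 differences from -3.30 to -1.95. This contrast has 2 more groups of 2 mice and shares its drug-treated mice with the direct one. Cxcl12 did not pass in it, at -1.25 ± 0.63 on the log2 scale, adjusted p = 0.372. The count fell to 1 without replicate 2 of the ruxolitinib vehicle and to 2 without replicate 1 of the venetoclax vehicle. Against its own vehicle alone, 1 gene passed for venetoclax (0.153%) and 18 for ruxolitinib (2.75%), of which 5 were higher (0.763%).

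The same direct contrast on the later days, in other mice and other runs, passed for 5 genes on day 3 (0.763%; 4 higher, 0.611%, and 1 lower, 0.153%) and for 4 on day 7 (0.611%; 3 higher, 0.458%, and 1 lower, 0.153%). H2-DMb2 was the gene of these that was lower on day 3, by -1.31 ± 0.31 on the log2 scale, adjusted p = 0.0241. Igll1 was among the higher genes on day 3, by 2.28 ± 0.31 on the log2 scale, adjusted p = 1.04e-05, and was the lower gene on day 7, by -1.71 ± 0.29 on the log2 scale, adjusted p = 0.000319. Tested as an interaction, the day 1 difference departed from that of day 3 for 16 genes (2.44%; 7 more positive, 1.07%, and 9 more negative, 1.37%) and from that of day 7 for 30 genes (4.58%; 4 more positive, 0.611%, and 26 more negative, 3.97%).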

How the data were processed

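Total RNA of BM was measured on the NanoString nCounter in 33 mice, 1 lane each, with 11 lanes per run. The deposited values are raw barcode counts that the authors exported without normalisation, and no build or version for the probe set is given in the sources used here. The methods name the PanCancer Immune Profiling Panel, and the series text names an immunology panel. Groups were taken from the labels.

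Size factors came from 11 of the 20 housekeeping probes, those exceeding background throughout, as their geometric mean in each lane. Background was 2 SD over the mean of 8 negative control probes. The 655 genes that exceeded it in 2 or more lanes were tested. The quasi-likelihood test was that of edgeR (version 4.0.16, R 4.3.3), fitted to all 33 lanes with 13 group means (20 residual degrees of freedom, biological coefficient of variation 20.2%). Benjamini-Hochberg adjustment covered all genes tested, with a threshold of 0.05. A single gene with 3 mice against 3 allows no two-sided exact permutation p under 0.1.

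Genes named are those the study names, up to 15 in each direction with the largest difference among genes that passed without overlap and had a mean of at least 20 normalised counts, 2 per list with the smallest p-value, and Bcl2, Jak1 and Jak2; a few genes are not reported here. The mice compared, the 27 lists and this rule were chosen with earlier results of these data known. On simulated counts 200 of 655 genes were changed, 144 were called, 93.1% of those called were changed, 57% of 2-fold and 77% of 4-fold changes were recovered, and 0 genes were called in the simulated contrast of the vehicles, in which no gene was changed.

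Alternatives were TMM and total count scaling, all 20 or 10 housekeeping probes, DESeq2 1.42.0, limma 3.58.1 on log2(normalised count + 1) with and without background subtraction, other filters on low counts (750 or 461 genes), fits of fewer groups, a replicate block, and each mouse left out. Added after the data were seen was the omission of the 2 lanes under 30000 counts. Promoter sequences are from RefSeq (GRCm38.p6), matched by symbol for 482 of 655 genes. Figures were drawn with Python 3.11.15.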

Additional observations from a re-analysis of the deposited data

Results flagged for a closer look

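The direct difference between the drugs was itself compared between days by an interaction term in the edgeR model, and genes of the naming rule with an adjusted p-value under 0.05 are given here. Over all genes tested the day 1 difference departed from that of day 3 for 16 (2.44%) and from that of day 7 for 30 (4.58%). Each value is the day 1 log2 difference, venetoclax minus ruxolitinib, minus that of the later day. Day and run cannot be told apart, since the lanes of a day were read in 1 run, and a ruxolitinib lane of day 3 held 26881 counts with a background of 39.7 normalised counts.

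Of 31 tested IFN-inducible genes, the day 1 difference was more positive than that of day 3 for 6 and than that of day 7 for 3, and more negative for 0. Among those of the naming rule the values against day 3 were Ifit3 (2.38), Isg15 (2.88), Oas2 (1.64) and Rsad2 (1.46), and against day 7 they were Ifit3 (2.35), Isg15 (1.97) and Oas2 (2.35). The direct differences of Isg15 were 2.17 ± 0.44 (day 1), -0.71 ± 0.32 on day 3 and 0.20 ± 0.28 on day 7, and those of Oas2 2.31 ± 0.31, 0.67 ± 0.29 and -0.04 ± 0.30.

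Of 8 tested MHC-II genes, the day 1 difference was more negative than that of day 3 for 2 and than that of day 7 for 5, and more positive for 0. Against day 3 the values were Cd74 (-1.83) and H2-Eb1 (-1.46), and against day 7 they were Cd74 (-2.06), H2-Aa (-2.51), H2-Ab1 (-1.48), H2-DMb2 (-2.21) and H2-Eb1 (-1.37). H2-DMb2, whose direct differences were -2.94 ± 0.35, -1.31 ± 0.31 and -0.73 ± 0.28 on days 1, 3 and 7, passed on both of the first 2 days (adjusted p = 0.0241 on day 3).

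Among the other genes, the values against day 3 were Tcf7 (-3.36) and Tnfrsf13c (-2.78). Against day 7 they were Blnk (-2.27), Btla (-1.37), Ccl6 (-2.25), Ccr1 (-1.87), Cd2 (-2.96), Cd38 (-2.70), Cd79b (-2.82), Dusp6 (-1.39), Icosl (-1.71), Igll1 (2.61), Il10ra (-1.13), Klrd1 (-1.66), Thbs1 (-1.69) and Tnfrsf13c (-3.89). The pre-B gene Igll1 was higher after venetoclax on day 1 (0.90 ± 0.29) and day 3 (2.28 ± 0.31, adjusted p = 1.04e-05) and lower on day 7 (-1.71 ± 0.29, adjusted p = 0.000319). Tnfrsf13c, the BAFF receptor, had direct differences of -2.74 ± 0.52, 0.04 ± 0.42 and 1.16 ± 0.39 on days 1, 3 and 7.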

How the results depend on the processing

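Of the 65 genes that passed, 24 passed in all 12 alternatives that kept every mouse (a further gene, Ccr6, passed in the 11 whose filter kept it) and 16 in all 6 fits that left out a drug-treated mouse; 15 passed in both: H2-Aa, H2-Ab1, H2-Eb1, H2-DMb2, Cd74, Ciita, Oas2, Axl, Btla, Cd55, Cmah, Cxcl12, Icosl, Il21r and Thbs1. Among these, H2-DMb2, Ciita, Btla and Il21r were not above background in venetoclax replicate 1. The number of genes that passed was 43 with limma after background subtraction and 102 in a fit of the 11 lanes of day 1 alone, and 25 to 57 when a mouse was left out, lowest without venetoclax replicate 2. Genes higher after venetoclax numbered 8 with total count scaling, 6 with limma, 1 with limma after background subtraction (2.33% of its calls), 28 in the day 1 lanes alone and 5 to 13 with a mouse left out. Genes lower after venetoclax numbered 29 with DESeq2 and 20 to 44 with a mouse left out. MHC-II members that passed numbered 7 or 8 in the alternatives and 6 to 8 with a mouse left out. IFN-inducible members numbered 5 with total count scaling, 1 with limma after background subtraction and 2 to 10 with a mouse left out. The cause of these shifts was not tested.

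The contrast between the vehicles called 0 genes in every alternative. The difference relative to each vehicle called 7 genes with DESeq2, 1 with limma, 0 with limma after background subtraction, 61 in a fit of only the groups compared, 61 in the day 1 lanes alone and 1 to 10 with a mouse left out. The estimate of Klrb1 turned to -0.00298 with total count scaling, -0.44 with limma after background subtraction and -0.15 without venetoclax replicate 3 (range -0.15 to 0.65 with a mouse left out), and Mcam to 0.19 without venetoclax replicate 2 (range -1.96 to 0.19). Of the 65 genes that passed, 1 that is not reported here changed sign, with limma after background subtraction. Relative to the main scaling the median of all genes shifted by 0.15 with TMM, 0.22 with DESeq2, 0.10 with all 20 housekeeping probes and -0.29 with limma after background subtraction.

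Replicate numbers are shared between groups, but the mice are different animals and same-numbered lanes deviated with correlations of -0.13, -0.0034 and 0.025 over 461 genes, so the numbers do not pair them. With the replicate number as a block 68 genes passed, 64 of them among the 65. Without the 2 lanes under 30000 counts, an alternative chosen after seeing the data, 56 genes passed, 12 higher and 44 lower. Depth limits genes under about 24.4 normalised counts in venetoclax replicate 1.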

Other observations

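The estimate furthest from 0 among genes higher after venetoclax did not belong to a gene that passed. Crp, an acute phase protein of liver, had 27.7, 0.623 and 6.36 normalised counts after venetoclax and 0.628, 0.566 and 0.547 after ruxolitinib (log2 difference 3.03, adjusted p = 0.130). Every ruxolitinib lane was below its background for Crp, which was 2.87 to 4.29 normalised counts, so the size of this difference is not exact. Gzmb, granzyme B of cytotoxic cells, had 11.1, 2.49 and 2.12 against 0.628, 0.566 and 0.547 (2.34, adjusted p = 0.118), with none of the 6 lanes above background. Both genes were named after their values were seen, and for both the shallow venetoclax lane held the highest value of its group.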
